A study of Rattus norvegicus with 3 samples.

Results

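Astrocytes were selected among the single-nucleus RNA profiles of rat nucleus accumbens punches by a rule on raw counts of unique molecular identifiers (UMIs, 1 per captured transcript). Nuclei under 500 genes or over 5% mitochondrial UMIs were left out first. A nucleus was then selected on its counts and called an astrocyte if it held at least 6 UMIs over 10 genes (Gja1, Aqp4, Slc4a4, Ntsr2, Fgfr3, Acsbg1, Slc7a10, Atp13a4, Gli3 and Bmpr1b), fewer than 10 over 5 medium spiny neuron genes, at most 1 over Pdgfra and Cspg4, and at most 2 over Mog, Mag and Opalin. The rule found 531 astrocytes among 10806 kept nuclei, 131 of 3520 in HAUA, 172 of 3810 in HA and 228 of 3476 in LA. Since the nuclei were chosen by these counts, levels of the 10 genes, and of all genes against the other nuclei, are given as a description and were not tested.

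HAUA rats were of the high anxiety class and were given urolithin A, which gut bacteria make from plant polyphenols and which is known to induce mitophagy, over 2 months. HA rats were of the same class, and LA rats of the low anxiety class, and neither was treated. All were outbred Wistar rats, sorted by their behaviour in the elevated plus maze and in an open field and object test, and tissue was taken at 16 weeks. Each group was 1 library made from pooled punches of 5 hemispheres, so no animal can be told from another within a group. The design compares high with low anxiety and treated with untreated high anxiety. With 1 library per group there is no spread between replicates and nothing was tested, so every difference below is between libraries with no replicate check. Intervals are exact 95% intervals and cover counting error only. Where 3 levels or counts follow each other, they are those of HAUA, HA and LA. The libraries shared at most 6 barcodes pairwise, none of them in an astrocyte.

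Astrocytes clear glutamate from synapses through the transporters Slc1a2 and Slc1a3, buffer potassium and water through channels such as Kcnj10 and Aqp4, and are joined into networks by connexins such as Gja1. In the striatum they respond to transmitters released by neurons, and they supply neurons with lipid carried by Apoe and with amino acids. In the mouse, astrocytes keep regional programmes: Lhx2 marks those of the telencephalon, Agt those of ventral and non-telencephalic regions, and Crym a part of those in the striatum.

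The label fitted most but not all of these nuclei. Over 4 pan-neuronal genes (Snap25, Syt1, Rbfox3 and Celf4, for vesicle release, splicing and RNA binding), 35 astrocytes held 6 or more UMIs, with a median of 43, while the other 496 held at most 4, and 315 of those held 0. These 35, called neuron-rich below, numbered 7 of 131 in HAUA (5.34%), 21 of 172 in HA (12.2%) and 7 of 228 in LA (3.07%). They held 22.1% of all astrocyte UMIs, with a median depth of 10323 UMIs, against 2367 in the others. Their rule counts were low, with a median of 7 UMIs against 18, and the rule gene with the most UMIs in them was Slc4a4 (148 UMIs), a sodium bicarbonate cotransporter, ahead of Gja1 (53). In them Slc1a2 stood at 392 CPM (UMIs per 1000000), against 6729 CPM in the others, and Apoe, the main lipid carrier of the brain, at 1183 CPM against 27104 CPM. Neuronal genes showed the opposite: the potassium channel partner Dpp10 stood at 7316 CPM in the neuron-rich nuclei and 45.1 CPM in the others, the neuregulin receptor Erbb4 at 3874 and 200 CPM, the GABA-synthesising enzyme Gad1 at 383 and 25 CPM, and the vesicular glutamate transporter Slc17a7 at 284 and 8.06 CPM. Summed together, the neuron-rich nuclei went against the label, but they were not all alike. A nucleus of HA held 41 rule and 10 neuronal UMIs, and a nucleus of LA 22 and 16. The Gja1 UMIs lay in 6 of the 35. The shares and the counts over all measured genes are given with and without them, and the gene and list values without them unless stated. The limit of 6 neuronal UMIs was chosen after seeing the data.

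**Figure D1:**
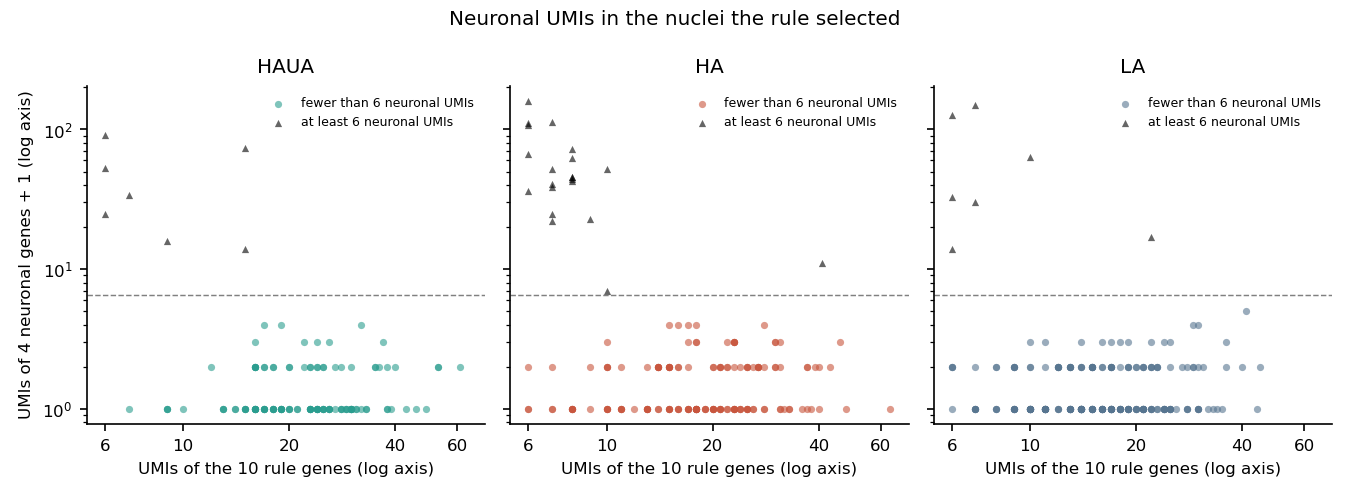
UMIs of the 10 rule genes (x axis, log scale) against UMIs of 4 neuronal genes plus 1 (y axis, log scale) for each nucleus the rule selected, 1 panel per library. Triangles are the neuron-rich nuclei (7 in HAUA, 21 in HA, 7 in LA), which lie above the dashed line and mostly at the lowest rule counts, and circles are the others, which held at most 4 neuronal UMIs.

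Nuclei at the lower limit of the rule were of mixed kind. Just inside it, with 6 or 7 rule UMIs, were 5 nuclei in HAUA, 17 in HA and 15 in LA, with Slc1a2 at 169, 314 and 1793 CPM and median neuronal UMIs of 33, 35 and 1. Just outside, with 4 or 5 rule UMIs, were 18, 30 and 24 nuclei, with Slc1a2 at 83.8, 266 and 410 CPM. At the spiny neuron limit the rule cut off far more nuclei than it kept: of those that reached 6 rule UMIs, 427 of 562 in HAUA, 687 of 867 in HA and 482 of 719 in LA held at least 10 spiny neuron UMIs.

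The other 496 nuclei carried astrocyte genes well beyond the 10 of the rule. Total UMIs over them were 335821 in HAUA, 425513 in HA and 480057 in LA, and median depths were 2649, 2649 and 2079 UMIs. Apoe stood at 30820 CPM in HAUA, 22871 CPM in HA and 28257 CPM in LA. Gpc5, a glypican, stood at 10056, 9924 and 10388 CPM in the same order, the glutamate transporter Slc1a2 at 6730, 6616 and 6828 CPM, and its partner Slc1a3 at 3273, 3610 and 3456 CPM. The calcium-binding protein S100b stood at 634, 618 and 694 CPM, and the transcription factor Sox9, which fixes glial fate, at 143, 160 and 179 CPM. Of 22 astrocyte genes outside the rule, fixed as a list, none was at 0 in any library, and 19 were measured, that is, had at least 150 UMIs over the 3 libraries.

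Of the markers outside the rule, Itih3, a heavy chain of the inter-alpha-trypsin inhibitors that bind hyaluronan, stood at 2561 CPM in HAUA, 1838 CPM in HA and 2523 CPM in LA. In all other kept nuclei it stood at 8.68, 5.86 and 21.2 CPM. Agt, which encodes the angiotensin precursor, stood at 1200, 588 and 1185 CPM, and at 4.87, 2.84 and 7.4 CPM in the other nuclei. Of the genes the rule used, the connexin Gja1 stood at 3666, 3206 and 3054 CPM, the water channel Aqp4 at 664, 477 and 583 CPM, Slc4a4 at 1269, 1011 and 1214 CPM and the neurotensin receptor Ntsr2 at 724, 498 and 633 CPM. Ranked by the lowest of the 3 libraries' ratios over all other nuclei, the genes most restricted to astrocytes, outside the rule, included Sdc4, Agt, Aqp9, Fzd2, Cldn10, Hsd11b1, S1pr1, Prodh, Itih3, Slc1a2, Grin2c, Pdlim4, F3 and Pdgfrb, with lowest log2 ratios between 7.49 and 6.49. Hsd11b1, the enzyme that regenerates active glucocorticoid, stood at 703 CPM in HAUA, 644 CPM in HA and 737 CPM in LA. Aqp9, a channel for water and glycerol, stood at 164, 165 and 160 CPM, and the NMDA receptor subunit Grin2c at 762, 834 and 731 CPM. Pdgfrb is also a marker of mural cells: it made up 256, 256 and 294 of the 256, 256 and 296 CPM summed over Pdgfrb, Rgs5 and Vtn.

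**Figure D2:**
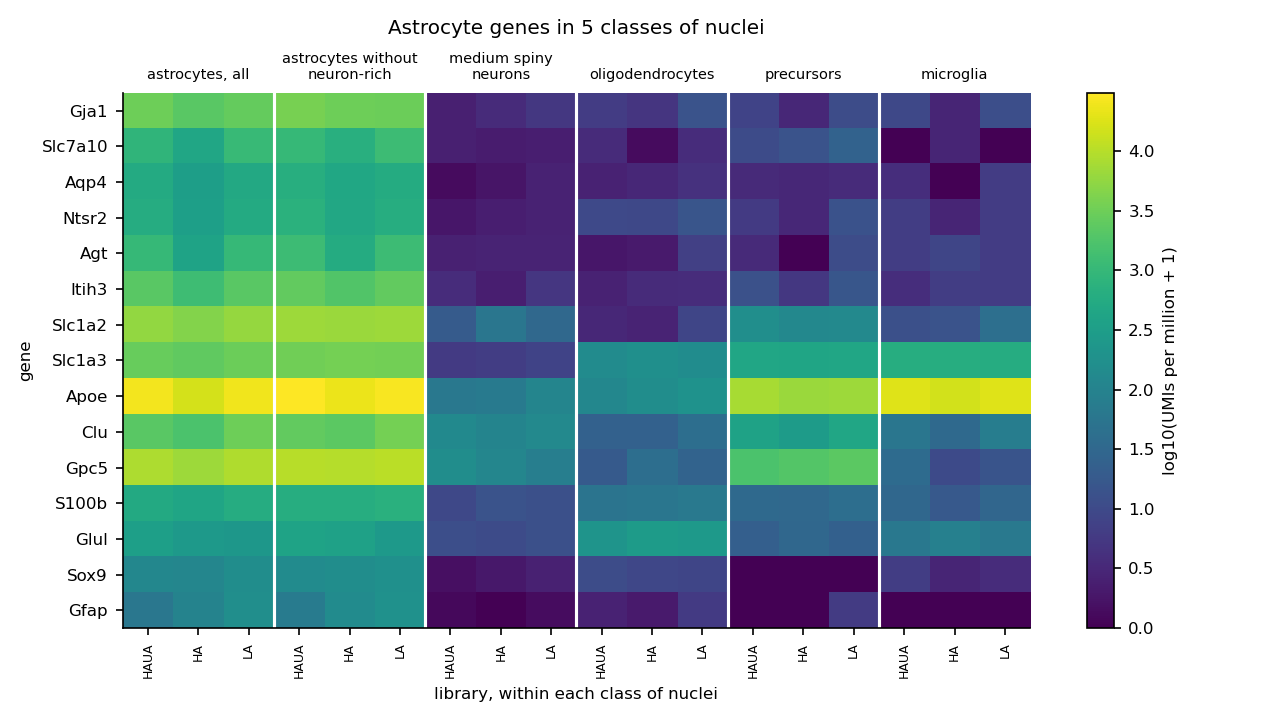
Levels of 15 astrocyte genes, as log10 of CPM plus 1 (colour), in the nuclei of 5 classes of each library, with astrocytes shown with and without the neuron-rich nuclei. Agt and Itih3 are bright in the astrocyte columns and dark in the others, while Apoe is also high in microglia and precursors (Apoe in microglia 18295 CPM in HAUA, 15221 in HA and 18725 in LA).

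Markers of other cells were low in these nuclei, and their part in the results was not tested. The rule itself limited UMIs of precursor, oligodendrocyte and spiny neuron genes, so low sums for those cells partly follow from selection. Snap25, Syt1, Rbfox3 and Celf4, all among the pan-neuronal markers, were the genes that set the neuron-rich nuclei apart. The lower pan-neuronal sum without those nuclei therefore follows from how they were chosen. Of 5 microglial markers Inpp5d was at 0 in HAUA and none in the other libraries, and they summed to 32.8 CPM in HAUA, 143 CPM in HA and 104 CPM in LA, oligodendrocyte precursor markers to 47.6, 32.9 and 35.4 CPM, and oligodendrocyte markers to 390, 324 and 356 CPM. Ependymal markers summed to 0, 11.8 and 14.6 CPM, endothelial markers to 2.98, 4.7 and 0 CPM and fibroblast markers to 0, 2.35 and 8.33 CPM, and 3 of 3, 2 of 3 and 1 of 3 fibroblast markers were at 0. Neuroblast markers summed to 14.9, 18.8 and 2.08 CPM and dividing-cell markers to 5.96, 127 and 2.08 CPM. The 5 pan-neuronal markers, which include Nrg3, summed to 527, 423 and 540 CPM, against 1797, 3340 and 1997 CPM with the neuron-rich nuclei, and the 7 medium spiny neuron markers found in the files, mostly Meis2 and Foxp1, to 1087, 980 and 1114 CPM. With each nucleus thinned to 2000 UMIs, Agt was seen in 66% of the astrocytes of HAUA (103 nuclei of that depth, 21 left out). It was seen in 50% of those of HA (124, with 27 left out) and 63.5% of those of LA (115, with 106 left out). Without thinning these shares were 75%, 51.7% and 69.7%. In medium spiny neurons, with median depths of 6338, 6908 and 5578 UMIs, the thinned shares of nuclei with an Agt UMI were 0.166%, 0.206% and 0.258%. That class took only nuclei with fewer than 6 rule UMIs, which left out those with more astrocyte RNA. Its shares therefore do not measure free RNA, which was not tested. Apoe was seen in 9.71%, 9.59% and 15.5% of the same thinned nuclei.

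The promoters of Itih3, a marker outside the rule, and of Slc7a10, the rule gene past the fold between libraries, are shown because the comparisons below turn on both. They run from 250 bases before to 50 bases after the annotated start, from RefSeq on GRCr8. The counts were made on another build, and no position was carried between them. Capitals mark a half-site of the glial factor family NFI (TTGGC) and a core of SOX factors (ACAAT), searched on both strands, where ATTGT is the SOX core on the other strand. Of 33469 promoters of this length, 45.8% hold the NFI letters and 33.7% the SOX letters.
Itih3, chr16:6123325-6123624, minus strand: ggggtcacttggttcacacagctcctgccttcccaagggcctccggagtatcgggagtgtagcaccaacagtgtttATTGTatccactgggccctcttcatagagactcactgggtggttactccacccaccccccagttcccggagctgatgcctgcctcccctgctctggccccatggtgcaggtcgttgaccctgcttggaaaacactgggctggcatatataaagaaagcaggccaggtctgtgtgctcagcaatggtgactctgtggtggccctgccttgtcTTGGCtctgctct
Slc7a10, chr1:96965872-96966171, plus strand: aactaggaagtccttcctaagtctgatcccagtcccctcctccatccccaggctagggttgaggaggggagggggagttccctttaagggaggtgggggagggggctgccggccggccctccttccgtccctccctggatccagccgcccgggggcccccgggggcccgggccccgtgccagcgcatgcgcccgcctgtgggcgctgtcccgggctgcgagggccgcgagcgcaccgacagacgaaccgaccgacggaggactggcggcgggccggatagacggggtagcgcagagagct
The Itih3 window holds 1 match to each motif, and the Slc7a10 window holds 0.

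Genes known from telencephalic and from ventral or non-telencephalic astrocytes of the mouse were both present, a description with no test. Lhx2, a transcription factor that patterns the forebrain, stood at 80.4 CPM in HAUA, 139 CPM in HA and 104 CPM in LA. Meis2, a transcription factor of the ventral forebrain, stood at 715, 696 and 646 CPM, and Six3, another, at 77.4, 79.9 and 62.5 CPM. Crym, which encodes the thyroid hormone binding protein mu-crystallin, stood at 47.6, 28.2 and 39.6 CPM, on 16, 12 and 19 UMIs. Irx2 and Irx5, transcription factor genes of more caudal brain regions, had 0 UMIs in every library, as had Crhbp and Mfge8. Beside these, the transporter for GABA Slc6a11 stood at 265 CPM in HAUA, 186 CPM in HA and 240 CPM in LA, and that for glycine Slc6a9 at 179, 150 and 210 CPM. Of the 11 genes of the non-telencephalic list, which holds Agt and Itih3, 5 were measured. The list summed to 4490 CPM in HAUA, 3010 CPM in HA and 4491 CPM in LA, with Agt and Sparc lower in HA over LA, Agt higher in HAUA over HA and Sparc lower in HAUA over LA. The list's median log2 ratios were -0.48 for HA over LA, 0.48 for HAUA over HA and 0.02 for HAUA over LA. The telencephalic list, with 2 of 11 measured, summed to 1507, 1309 and 1756 CPM. Its medians were -0.29 for HA over LA, 0.15 for HAUA over HA and -0.14 for HAUA over LA. Slc7a10, of the measured pair, was lower in HA over LA (-0.82) and higher in HAUA over HA (0.60). It is among the 10 rule genes that chose the nuclei, so the sums and medians of this list are no separate result. Lhx2 was highest in HA, as given above. The striatal and ventral list, with 4 of 12 measured, summed to 4934, 3525 and 4829 CPM. Its medians were -0.44, 0.40 and 0.02 in the same order of comparisons, with Agt past the fold as in the non-telencephalic list. It too holds Agt and Itih3, so these lists share their main genes and do not count as separate results. Of the white matter and surface list, which holds the rule gene Aqp4, 4 of 15 were measured. The list summed to 1557, 1452 and 1612 CPM, and Gfap alone passed the fold used below.

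The share of astrocytes among kept nuclei was 3.72% in HAUA (3.12% to 4.4%), 4.51% in HA (3.88% to 5.22%) and 6.56% in LA (5.76% to 7.43%). The interval of LA did not overlap those of the other libraries. Without the neuron-rich nuclei the shares were 3.52%, 3.96% and 6.36%. The order turned round under a stricter nucleus filter, of 1000 genes or more and no more than 1% mitochondrial UMIs: there astrocytes were 6.65% of 1683 nuclei in HAUA, 6.62% of 1964 in HA and 5.91% of 1811 in LA, and their intervals overlapped. LA astrocytes were the shallowest, with a median of 2099 UMIs against 2706 in HAUA and 2884 in HA, and 106 of 228 of them held under 2000 UMIs. Kept nuclei of at least 2000 UMIs were also thinned to 2000 UMIs before the rule. Among these, the astrocyte shares were 3.71% in HAUA, 4.01% in HA and 4.38% in LA. Shallower nuclei were left out of both the astrocytes and the total, so the effects of thinning and of that cut cannot be told apart. A share cannot tell fewer astrocytes from more of the other nuclei, or from nuclei lost in isolation.

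**Figure D3:**
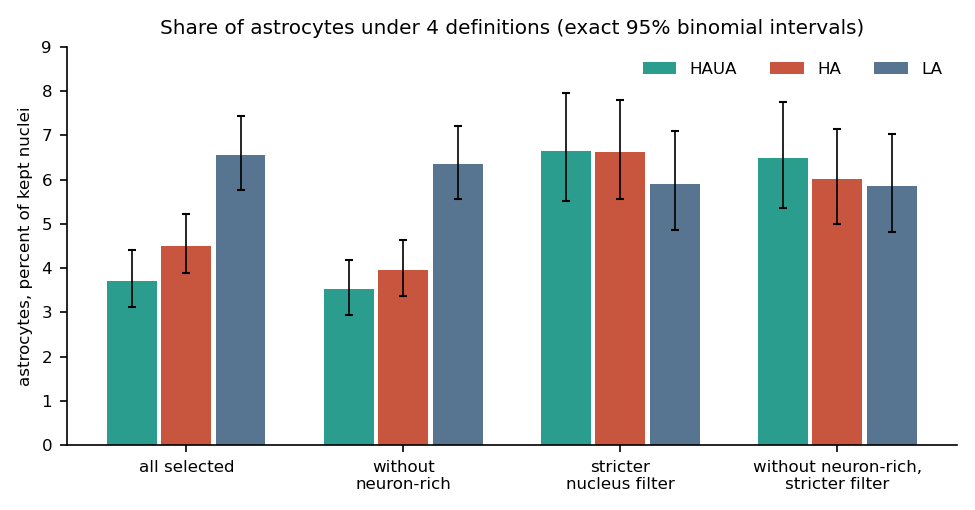
Astrocytes as a percent of kept nuclei (y axis, from 0) in HAUA, HA and LA under 4 definitions (x axis), with exact 95% binomial intervals as error bars. LA is highest at 6.56% in all selected nuclei, and the 3 libraries lie between 5.91% and 6.65% under the stricter nucleus filter.

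Between the libraries, counts were summed over the astrocytes and scaled to their total, and a gene was called higher or lower past a fixed fold of 1.5. Over all 531 nuclei, 2472 genes were measured. In HA over LA, 232 of them were higher (9.39%) and 157 lower (6.35%). In HAUA over HA, 135 were higher (5.46%) and 228 lower (9.22%), and in HAUA over LA 127 were higher (5.14%) and 118 lower (4.77%). The comparisons share libraries: HA is in HA over LA and HAUA over HA, and LA in HA over LA and HAUA over LA. The genes highest in HA over LA were Il1rapl2 (log2 3.56), Maf (3.33), Lrrtm4 (2.48), Nxph1 (2.40), Erbb4 (2.25), Unc5d (2.76), Kcnip1 (2.44) and Galntl6 (2.29), and those lowest in HAUA over HA included Dpp10 (-4.02), Cdh12 (-3.69), Opcml (-2.95), Grm8 (-3.63) and Gria3 (-2.94). The lower end of HA over LA held Agt (-1.39), Igsf1 (-1.28), Selenop (-1.34), Slc7a10 (-1.18), Gpr37l1 (-1.02), Clu (-0.97), Itm2b (-0.94) and Atp1b2 (-0.97). Several genes of the upper end are known from neurons, and most of their UMIs lay in the neuron-rich nuclei: of Il1rapl2, 629 UMIs lay in those 35 and 10 in the other 496, and of Maf 300 and 8.

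Without the neuron-rich nuclei the differences were fewer. Of 1773 measured genes, 72 were higher in HA over LA (4.06%) and 68 lower (3.84%), and for 10 and 11 of them the whole interval lay past the fold. In HAUA over HA, 41 were higher (2.31%) and 63 lower (3.55%), with 4 and 5 wholly past it. In HAUA over LA, 50 were higher (2.82%) and 50 lower (2.82%), with 2 and 9. Of the 19 measured genes of the astrocyte identity list, 2 were lower in HA over LA (Agt and Clu), 1 was higher (Agt) and 1 lower (Gfap) in HAUA over HA and 1 was lower (Gfap) in HAUA over LA, with medians of -0.15, 0.07 and 0.02. Over all 531 nuclei 7 of 19 were lower in HA over LA and 5 higher in HAUA over HA. The median log2 ratio of all measured genes was 0.012 for HA over LA, -0.004 for HAUA over HA and 0.005 for HAUA over LA. Where 3 list medians follow each other below, they are for HA over LA, HAUA over HA and HAUA over LA. Each list count below is to be read beside the shares of all measured genes given above.

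Agt was the gene lowest in HA over LA by the bound of its interval nearest to 0. It had 403 UMIs in HAUA, 250 in HA and 569 in LA, in 93 of 124, 78 of 151 and 154 of 221 nuclei. Its level was 1200 CPM in HAUA (1086 to 1323), 588 CPM in HA (517 to 665) and 1185 CPM in LA (1090 to 1287), so HA alone stood apart and the intervals of HAUA and LA overlapped. The log2 ratio of HA over LA was -1.01 (-1.23 to -0.80), that of HAUA over HA 1.03 (0.80 to 1.26) and that of HAUA over LA 0.02 (-0.17 to 0.21). No nucleus held more than 7.2% of a library's Agt UMIs. Over all 531 nuclei the levels were 1014, 395 and 1034 CPM, with ratios of -1.39 for HA over LA and 1.36 for HAUA over HA. In the stricter nuclei without the neuron-rich, the ratios were -0.74 for HA over LA, 1.04 for HAUA over HA and 0.295 for HAUA over LA. The first and last of these lay outside the intervals above. After thinning to 2000 UMIs the ratios were -0.77, 0.78 and 0.01 in the same order. Of these, the ratios of HA over LA and of HAUA over HA were closer to 0 than the whole of their intervals above. In the other 4 classes Agt was at most 10 CPM in any library.

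Slc7a10, Igsf1, Selenop, Itih3 and Tssc4 also stood lowest in HA. Slc7a10, a transporter of small neutral amino acids that carries D-serine and glycine, stood at 1033 CPM in HAUA, 679 CPM in HA and 1196 CPM in LA, with log2 ratios of -0.82 for HA over LA and 0.60 for HAUA over HA. It is among the genes that chose the nuclei, so its level is a description. In the stricter nuclei the Slc7a10 ratios were -0.75 and 0.51, the second under the fold, and after thinning to 2000 UMIs they were -0.54 and 0.57, both under it. Igsf1, a membrane glycoprotein of the immunoglobulin family, stood at 825, 526 and 987 CPM (-0.91 and 0.65), and the first came to -0.54 in the stricter nuclei, under the fold. Selenop, which carries selenium, stood at 414, 247 and 490 CPM (-0.99 and 0.75). Itih3 had the same order with smaller ratios, -0.46 (-0.59 to -0.33) for HA over LA and 0.48 (0.34 to 0.62) for HAUA over HA, under the fold of 1.5. In the stricter nuclei the Itih3 ratios were -0.225, outside that interval, and 0.401. Tssc4, a factor of splicing complex assembly, stood at 3008, 2023 and 2970 CPM (-0.55 and 0.57), also under the fold. Ratios of Slc7a10, Igsf1 and Selenop in HAUA over LA were -0.21, -0.26 and -0.24. The other classes had the same sign for some of these: Selenop was lower in HA than in LA in 4 of 4, by a log2 ratio of -0.88 to -0.20, and Tssc4 was higher in HAUA than in HA in 4 of 4, by 0.28 to 0.44. Igsf1 was lower in HA than in LA in both classes with at least 20 UMIs, at -1.81 and -0.91.

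HAUA over HA had further genes at its upper end. Ednrb, the endothelin B receptor, stood at 831 CPM in HAUA, 524 CPM in HA and 746 CPM in LA, with a log2 ratio of 0.67 (0.41 to 0.93). Srgap1, which acts downstream of Slit and Robo, stood at 188, 70.5 and 144 CPM (1.41), and Sobp at 220, 108 and 177 CPM (1.03). Nrg3, a neuregulin, stood at 381, 216 and 340 CPM (0.82), although a single HA nucleus held 16.3% of that library's Nrg3 UMIs. Erbb4 stood at 301, 94 and 223 CPM here, with ratios of 1.68 (1.14 to 2.24) for HAUA over HA and -1.25 for HA over LA. Over all 531 nuclei Erbb4 had the opposite signs, -1.54 and 2.25, as 1110 of its UMIs lay in the 21 neuron-rich nuclei of HA. It also stood at 1993, 1966 and 1859 CPM in oligodendrocytes.

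**Figure D4:**
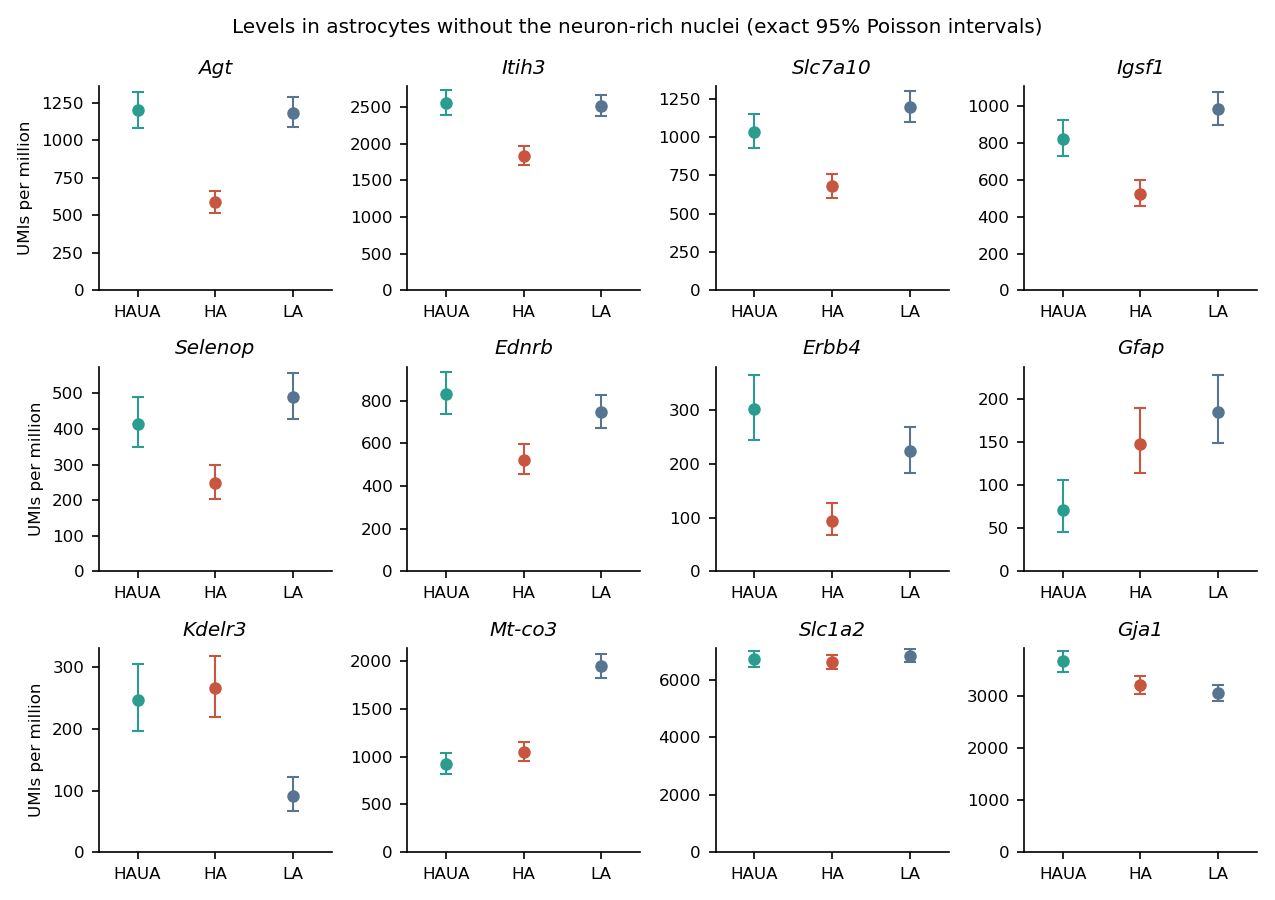
Levels of 12 genes in astrocytes without the neuron-rich nuclei, in CPM (y axes, from 0), for HAUA, HA and LA (x axes), with exact 95% Poisson intervals as error bars. HA lies below HAUA and LA for Agt, Itih3, Slc7a10, Igsf1, Selenop, Ednrb and Erbb4, LA lies apart for Kdelr3 and Mt-co3, and the intervals of Slc1a2 overlap (6730, 6616 and 6828 CPM).

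The upper end of HA over LA held Kdelr3, Nrg1, Efcab3, Sdccag8, RT1-T24-3, Prpf4b, Ak3 and Tra2a. Kdelr3, a receptor that returns proteins to the endoplasmic reticulum, stood at 247 CPM in HAUA, 266 CPM in HA and 91.7 CPM in LA, with a log2 ratio of 1.53 (1.02 to 2.07) for HA over LA and 1.43 (0.89 to 1.99) for HAUA over LA. It was higher in HA than in LA in the other 4 classes too, by 0.94 to 1.18. Efcab3, an EF-hand gene, stood at 393, 367 and 160 CPM (1.19 for HA over LA and 1.29 for HAUA over LA). Sdccag8, a centrosomal protein gene, stood at 491, 620 and 312 CPM (0.99), and RT1-T24-3, of the rat major histocompatibility complex, at 200, 266 and 119 CPM (1.16). Prpf4b, a kinase of the splicing machinery, was highest in HA, at 357, 670 and 362 CPM, with 0.89 for HA over LA and -0.91 for HAUA over HA. Ak3, a mitochondrial adenylate kinase, had a ratio of 1.05 and the splicing regulator Tra2a 0.87 in HA over LA. Sdccag8, RT1-T24-3, Prpf4b, Ak3 and Tra2a had the same sign in HA over LA in all 4 other classes. The ratio passed the fold in 3 of those classes for Sdccag8 and for RT1-T24-3, in 2 for Ak3 and in 1 for Prpf4b. For Tra2a it passed in 0, with ratios from 0.004 to 0.374.

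**Figure D5:**
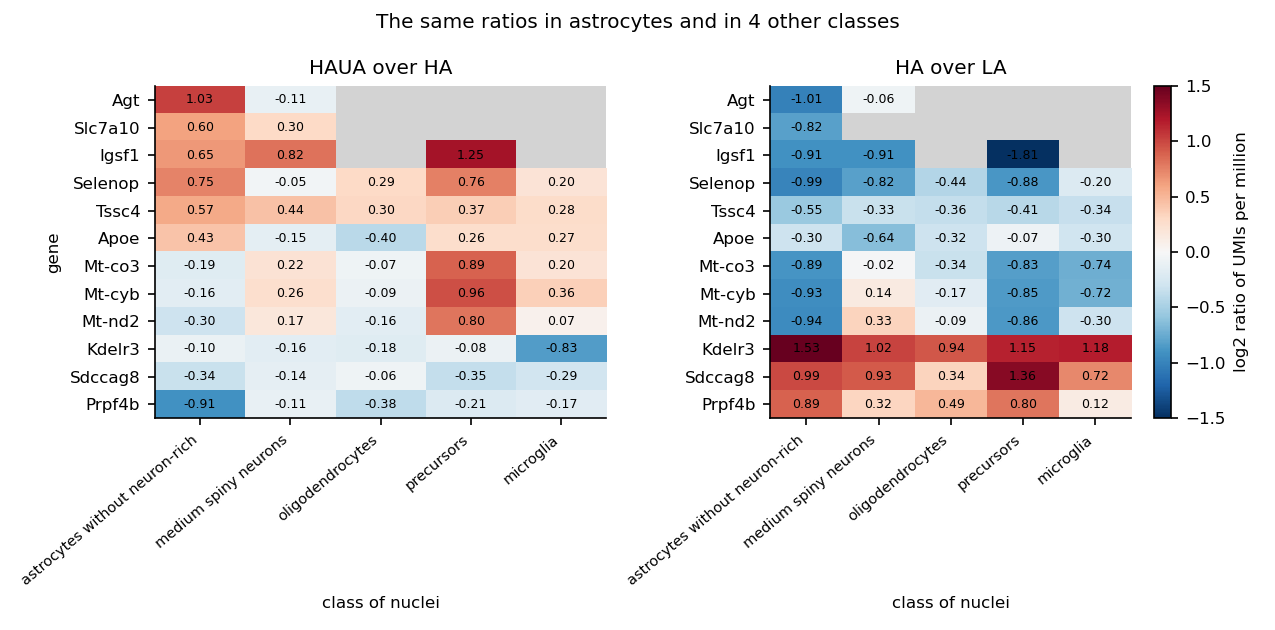
Log2 ratios of CPM (colour and number) for 12 genes (rows) in astrocytes without the neuron-rich nuclei and in 4 other classes (columns), for HAUA over HA and HA over LA. Agt differs in astrocytes (1.03 and -1.01) and not past the fold in medium spiny neurons (-0.11 and -0.06), while Kdelr3 in HA over LA is 1.53 in astrocytes and 0.94 to 1.18 in the other classes. Grey cells had under 20 UMIs.

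In HAUA over HA the lower end held Nrg1, Cd9, Tulp3, Prpf4b, Luzp2, Gli2, Adgrv1 and Ctss. Luzp2, a leucine zipper gene, stood at 1379 CPM in HAUA, 2179 CPM in HA and 1746 CPM in LA, with a log2 ratio of -0.66 (-0.82 to -0.50). Gli2, a transcription factor of hedgehog signalling, stood at 95.3, 197 and 148 CPM (-1.05), and Tulp3, which carries receptors into the cilium, at 101, 235 and 140 CPM (-1.22). Gfap, the intermediate filament of white matter and reactive astrocytes, stood at 71.5 CPM in HAUA, 148 CPM in HA and 185 CPM in LA, on 24, 63 and 89 UMIs in 14, 26 and 36 nuclei. The Gfap ratio was -1.05 (-1.79 to -0.35) for HAUA over HA and -1.38 (-2.09 to -0.71) for HAUA over LA, and 1 nucleus held 20.8% of the HAUA, 14.3% of the HA and 18% of the LA UMIs. In HAUA over LA the upper end also held Fth1, the ferritin heavy chain, at 387, 348 and 219 CPM (0.82), and Clybl, a mitochondrial lyase, at 736, 639 and 454 CPM (0.70).

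Some of these differences sat in few nuclei. Nrg1, a neuregulin, stood at 89.3 CPM in HAUA, 430 CPM in HA and 181 CPM in LA, with log2 ratios of -2.27 for HAUA over HA and 1.25 for HA over LA. Nuclei with a UMI of Sfrp1, a secreted Wnt inhibitor, numbered 5 in HAUA, 14 in HA and 10 in LA, and held 0, 123 and 20 of the Nrg1 UMIs, against 30, 60 and 67 in the other nuclei. Without those nuclei and the few with microglial or dividing-cell UMIs, the Nrg1 ratios were -0.94 and 0.08, and that of Cd9, a tetraspanin, was 0.17 for HAUA over HA, against -1.38 with them. The Sfrp1 nuclei, 29 in all, had Nrg1 at 2212 CPM against 133 CPM in the rest, Cd9 at 1315 against 108 CPM, the growth factor binding protein Igfbp5 at 959 against 119 CPM, the matrix protein Tnc at 340 against 43.3 CPM and the glial fatty acid binding protein Fabp7 at 294 against 59.5 CPM. They had Lsamp, a cell adhesion gene, at 3233 against 7537 CPM and Prodh at 46.4 against 337 CPM. Sfrp1 was chosen after seeing the data. Ctss, the microglial protease cathepsin S, had 1 UMI in HAUA, 83 in HA and 66 in LA, of which 78 lay in 2 HA nuclei and 52 in 1 LA nucleus with microglial UMIs. Its ratio in HAUA over HA was -6.03, with an interval from -11.35 to -3.52, and it was -2.01 without those nuclei. UMIs of the dividing-cell genes Top2a, Mki67 and Cenpf numbered 2 in HAUA, 54 in HA and 1 in LA, in 2, 6 and 1 nuclei.

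In HA over LA and in HAUA over LA, the mitochondrially encoded genes had the median furthest from 0 among the lists. They made up 0.562% of astrocyte UMIs in HAUA, 0.644% in HA and 1.1% in LA. Of the 8 measured, 8 were lower in HA over LA, with a median log2 ratio of -0.85, 8 were lower in HAUA over LA (-1.02), and 0 passed the fold in HAUA over HA (-0.19). Mt-co3, a subunit of cytochrome c oxidase, stood at 923 CPM in HAUA, 1050 CPM in HA and 1941 CPM in LA (-0.89 for HA over LA). Mt-cyb of complex III stood at 652, 731 and 1394 CPM (-0.93), and Mt-nd2 of complex I at 453, 559 and 1073 CPM (-0.94). In the nuclei of the stricter filter, which itself limits mitochondrial UMIs, the Mt-co3 ratio was -0.55 and that of Mt-nd2 -0.53, both under the fold. Oligodendrocytes had the same order of libraries, with 1.54% in HAUA, 1.69% in HA and 1.83% in LA, and the other 3 classes had other orders. The oligodendrocyte median ratio for HA over LA was 0.015, with 0 genes lower past the fold. Medium spiny neurons held 1.19% in HAUA, 1.07% in HA and 0.873% in LA, with a median ratio of 0.52 for HA over LA. Precursors had 1.24%, 0.695% and 1.16% and microglia 0.928%, 0.776% and 1.18%. Their median ratios for HA over LA were -0.80 in precursors (7 of 8 measured lower) and -0.64 in microglia (4 of 8 lower). For HAUA over LA they were 0.09 and -0.34, with 0 genes past the fold. Transcripts made in mitochondria lie outside the nucleus, so these values also measure what is left around it, and carryover and expression cannot be told apart.

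The measured nuclear genes for mitochondria did not follow that list. They were 9 of 68 matched subunits of the respiratory chain and 12 of 43 matched genes of mitophagy and mitochondrial upkeep. The rest were under the minimum, so most of both lists could not be compared. Of 9 measured nuclear subunits of the respiratory chain, 1 was higher in HA over LA (Ndufb9, at 119 CPM in HAUA, 165 CPM in HA and 108 CPM in LA) and none lower, with a median log2 ratio of 0.17, and 0 passed the fold in HAUA over HA (median 0.08) or HAUA over LA (0.25). Of 12 measured genes of mitophagy and mitochondrial upkeep, 1 was higher in HA over LA and 1 lower, the autophagy kinase Ulk2 (-0.65), with a median of -0.04. In HAUA over HA 0 of the 12 passed the fold, with a median of -0.07. Ppargc1a, a regulator of mitochondrial gene expression, stood at 238, 167 and 210 CPM, and Pink1, the kinase that marks damaged mitochondria, had 4 UMIs in HAUA, 3 in HA and 1 in LA, too few for a ratio.

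Transmitter clearance held no gene past the fold. Of 9 measured genes of glutamate uptake and metabolism, 0 passed the fold in any comparison, with median log2 ratios of -0.05 for HA over LA, 0.03 for HAUA over HA and -0.02 for HAUA over LA. Glul, which makes glutamine, stood at 402 CPM in HAUA, 376 CPM in HA and 271 CPM in LA, with 0.57 for HAUA over LA, just under the fold. Of 8 measured genes of GABA and glycine transport 0 passed, with medians of -0.33, 0.04 and 0.04. Of 10 genes of potassium and water balance, Atp1b2, a beta subunit of the sodium pump, was lower in HA over LA (1024, 846 and 1304 CPM, -0.62), and 0 passed in the other comparisons, with medians of -0.27, 0.20 and 0.00. Gap junction and adhesion genes, 14 measured, had medians of -0.02, 0.06 and 0.01, and the connexin Gjb2 alone passed the fold, lower in HAUA over HA (104 CPM in HAUA, 169 in HA and 121 in LA, -0.70). The connexin Gjb6 was under the minimum, with 27, 18 and 52 UMIs. The inward rectifier Kcnj10 stood at 250, 240 and 244 CPM. Over all 531 nuclei the potassium and water list had 4 of 10 lower in HA over LA and 2 higher in HAUA over HA.

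Few genes that shape synapses or receive signals passed the fold. The shares of all measured genes were 4.06% higher and 3.84% lower in HA over LA and 2.31% and 3.55% in HAUA over HA. In HAUA over LA they were 2.82% and 2.82%. Of 12 measured synapse organisers, Sparcl1 and Sparc, secreted matrix proteins, were lower in HA over LA (-0.61 and -0.89), Ephb1, an ephrin receptor, was lower in HAUA over HA (-0.93), and Sparc and Ephb1 were lower in HAUA over LA. Sparcl1 stood at 870 CPM in HAUA, 731 CPM in HA and 1119 CPM in LA. Of 8 measured receptors 0 passed the fold in HA over LA, while in HAUA over HA Ednrb was higher and Grm5, a metabotropic glutamate receptor, lower. Grm5 stood at 74.4 CPM in HAUA, 115 CPM in HA and 171 CPM in LA, with ratios of -0.63 (-1.39 to 0.09) for HAUA over HA and -1.20 for HAUA over LA. Grm3, the main metabotropic glutamate receptor gene of astrocytes, stood at 2004, 2195 and 2100 CPM. The glucocorticoid receptor Nr3c1 stood at 441, 451 and 460 CPM, and the mineralocorticoid receptor Nr3c2 at 295, 256 and 281 CPM. Of 13 measured genes of growth factor, Notch and BMP signalling, Erbb4 was lower in HA over LA, Erbb4 was higher and Gli2 and Notch2 lower in HAUA over HA, and Gli2 and Bmpr1a were lower in HAUA over LA. Adra1a, the adrenergic receptor for noradrenaline, stood at 217, 174 and 223 CPM. Calcium signalling genes, 7 measured, had 0 past the fold, with medians of -0.11, 0.25 and 0.04.

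Few members of the metabolic lists passed the fold. Of all measured genes, 4.06% were higher and 3.84% lower in HA over LA, and 2.31% and 3.55% in HAUA over HA. Of 17 measured genes of sterol and lipid handling, Clu, which encodes the secreted chaperone clusterin, was lower in HA over LA, at 2612 CPM in HAUA, 2324 CPM in HA and 3606 CPM in LA (-0.63), and 0 passed in the other comparisons, with medians of -0.17, 0.06 and -0.17. Apoe itself had ratios of -0.30 for HA over LA and 0.43 for HAUA over HA, under the fold. Fatty acid oxidation, 5 measured, had 0 past the fold and medians of 0.14, 0.28 and 0.11. Of 8 measured genes of glucose, lactate and glycogen, the glucose transporter Slc2a1 was lower in HA over LA (339, 256 and 394 CPM, -0.62), with medians of -0.01, 0.14 and 0.06. Of 5 measured genes of serine and amino acid supply, Slc7a10 passed as above and Gldc, of the glycine cleavage system, was lower in HAUA over HA (426, 644 and 458 CPM, -0.60), with medians of -0.39, 0.21 and -0.18.

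Stress and reactivity genes were scarce. Of 25 reactive astrocyte genes 2 were measured, Gfap and B2m, the light chain of class I molecules, which stood at 512 CPM in HAUA, 458 CPM in HA and 467 CPM in LA. Serpina3n and Lcn2, induced in reactive astrocytes of the mouse, had 0 UMIs in every library, and a count of 0 does not show that a gene is silent. Fkbp5, a target and brake of the glucocorticoid receptor, had 2 UMIs in each library. Of the 2 measured glucocorticoid-responsive genes, Klf9, a transcription factor, was higher in HAUA over HA (211, 122 and 148 CPM, 0.79, 0.25 to 1.34). The metallothionein Mt1 had 20, 20 and 12 UMIs and Mt2A 6, 8 and 5. Of 4 measured metallothionein and antioxidant genes 0 passed the fold, with medians of 0.04, 0.07 and -0.06, and of 8 measured clock genes 0 passed (0.12, 0.04 and 0.11). Of 3 measured heat shock genes, Hsp90ab1 was lower in HAUA over HA (188, 287 and 202 CPM, -0.61). Cytosolic ribosomal protein genes had none measured and summed to 2629, 3163 and 2575 CPM.

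Among the astrocytes, Itih3 was higher in nuclei with Agt. Nuclei were thinned to 2000 UMIs and split by at least 1 Agt UMI, giving 68 with and 35 without in HAUA, 62 and 62 in HA and 73 and 42 in LA. Itih3 was higher in the nuclei with Agt in every library, at 2529 and 2057 CPM in HAUA (log2 ratio 0.30), 2121 and 1419 CPM in HA (0.58) and 2473 and 1869 CPM in LA (0.40), and it was so over all selected nuclei too (0.52, 0.95 and 0.64). Luzp2 was lower in the nuclei with Agt, at 1309 and 1714 CPM in HAUA (-0.39), 1871 and 2573 CPM in HA (-0.46) and 1774 and 2381 CPM in LA (-0.43). These 6 intervals left out 0, and both genes are shown for that reason, after their values were seen. Over all selected nuclei, neuron-rich ones included, Luzp2 had the opposite sign in HA, and each interval held 0: -0.32 (-0.66 to 0.02) in HAUA, 0.19 (-0.06 to 0.45) in HA and -0.04 (-0.31 to 0.24) in LA. That set includes neuron-rich nuclei, low in both Agt (34.1 CPM) and Itih3 (142 CPM). In it Apoe (0.241, 0.526 and 0.266) and Gpc5 (0.132, 0.357 and 0.290) were also higher with Agt, with intervals that left out 0. Slc1a2 was higher too, but its HAUA interval held 0 (-0.127 to 0.192). Its Itih3 ratios therefore do not set Itih3 apart from other astrocyte genes.

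Nuclei with a Gfap UMI numbered 10 of 103 in HAUA, 16 of 124 in HA and 22 of 115 in LA after the same thinning. Tnc, a matrix protein gene, was higher in them in every library, on few UMIs: 4 in nuclei with Gfap and 6 in the others in HAUA, 8 and 13 in HA, and 4 and 2 in LA. Its log2 ratios were 2.63 (0.36 to 4.71) in HAUA, 2.05 (0.58 to 3.44) in HA and 3.08 (0.28 to 6.55) in LA, and over all selected nuclei they were 2.91, 1.99 and 2.18. Agt went opposite ways, lower in the nuclei with Gfap in HAUA (400 and 1043 CPM, -1.38, -2.62 to -0.38) and higher in LA (1295 and 898 CPM, 0.53, 0.07 to 0.97), with 406 and 597 CPM in HA (-0.56, with an interval that held 0). Slc7a10 stood at 650 and 1102 CPM in HAUA, 375 and 764 CPM in HA and 864 and 1081 CPM in LA, with an interval that left out 0 in HA alone, and in none of the libraries over all selected nuclei. Aqp4 stood at 1050 and 661 CPM in HAUA, 500 and 407 CPM in HA and 682 and 457 CPM in LA, with intervals that held 0 in each library, while over all selected nuclei that of HAUA left it out (0.26 to 1.63).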

How the data were processed

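The authors deposited raw UMI counts for 23098 features in each barcode. Cell Ranger 7.1.0 made them, per the file headers, on mRatBN7.2, per the submitters' processing notes. No source used here says if ambient RNA was subtracted. Nuclei came from nucleus accumbens punches, with median depths of kept nuclei of 4846 UMIs in HAUA, 4728 in HA and 4052 in LA, and 3520 of 3739, 3810 of 4066 and 3476 of 3619 barcodes were kept. The rule in the report was then applied. Other classes had fewer than 6 rule UMIs and at least 10 spiny neuron, 3 oligodendrocyte, 2 precursor or 3 microglial UMIs, within the other classes' limits. Counts were summed over the astrocytes of each library and divided by their total (CPM). Ratios have exact conditional (Clopper-Pearson) intervals, levels exact Poisson and shares exact binomial ones, at 95%. A gene was measured with at least 150 UMIs over the 3 libraries, and past a fold of 1.5 it was called higher or lower. With 1 library per group there was no test.

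The named genes are, among measured genes with a symbol, the 8 highest and 8 lowest in HA over LA and in HAUA over HA and the 4 at each end of HAUA over LA, by the interval bound nearest to 0, the list members past the fold whose interval leaves out 0 (up to 4 per list and comparison), the 15 most restricted genes and genes fixed by name. Not every such gene is described, some items are not reported here, and Grm5 in HAUA over HA and genes under the minimum are named beside them. The members and the 39 lists (615 of 644 symbols matched) were chosen with earlier results of these data known. Doublet scores came from Scrublet as built into scanpy 1.11.5, and the top ones (99 nuclei in HAUA, 116 in HA and 97 in LA, holding 3, 3 and 2 astrocytes) were left out only as an alternative. The other alternatives were a stricter nucleus filter, rule sum, spiny neuron limit, count minimum, thinning to 2000 UMIs and other scalings, with and without the neuron-rich nuclei. Thinning left out nuclei under 2000 UMIs. The ratios were tested on simulated data first. Tools were python 3.11.15, numpy 2.4.6, scipy 1.17.1, pandas 2.3.3, scikit-learn 1.9.0 and matplotlib 3.10.9.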

Additional observations from a re-analysis of the deposited data

How the results depend on the processing

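Shares of astrocytes moved under the stricter nucleus filter, to 6.65% in HAUA and 6.62% in HA. With a rule sum of at least 10 they moved to 3.7% in HA and 5.7% in LA. Among nuclei of at least 2000 UMIs, thinned to that depth, the share moved to 4.38% in LA. Counts of genes past 1.5-fold are given in the order HA over LA higher and lower, HAUA over HA higher and lower, HAUA over LA higher and lower. With a rule sum of at least 10 they were 72, 71, 42, 57, 58 and 54, with fewer than 4 spiny neuron UMIs 108, 81, 43, 76, 78 and 63, without the neuron-rich nuclei (chosen after seeing the data) 72, 68, 41, 63, 50 and 50, after thinning 47, 45, 30, 40, 32 and 41, with a minimum of 60 UMIs 779, 377, 401, 725, 558 and 417, and with a minimum of 400 UMIs 55, 65, 46, 52, 21 and 27. The stricter filter gave 127 lower in HAUA over HA and 53 lower in HAUA over LA. Without the neuron-rich nuclei and thinned they were 36, 27, 24, 27, 18 and 25, with the minimum of 60 UMIs 377, 242, 221, 362, 303 and 283, with that of 400 UMIs 8, 28, 12, 9, 4 and 11, and the stricter filter gave 36 lower in HA over LA and 27 lower in HAUA over HA. A lower minimum tests more genes with wider intervals, and the cause of the other moves was not tested.

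Log2 ratios over all 531 nuclei that turned round were those of Erbb4 in HA over LA (-1.25 without the neuron-rich nuclei), in HAUA over HA (0.068 with a rule sum of at least 10 and 1.68 without the neuron-rich nuclei) and in HAUA over LA (-0.39 under the stricter filter and -0.025 with fewer than 4 spiny neuron UMIs). In HAUA over LA, Nxph1 came to -2.95 under the stricter filter, and Opcml to 0.27 there and 0.56 with fewer than 4 spiny neuron UMIs. With a rule sum of at least 10, fewer than 4 spiny neuron UMIs and no neuron-rich nuclei, Ppargc1a came to -0.50, -0.027 and -0.33 in HA over LA and to 0.57, 0.10 and 0.51 in HAUA over HA. Without the neuron-rich nuclei, no named gene past the fold turned round where it stayed measured, and 1003 of their ratios under the alternatives lay within the main interval while 53 lay outside it. Cd9 in HAUA over HA came to 0.17 without the Sfrp1, dividing and microglial nuclei, where it was under the minimum. Doublet removal, median-of-ratios scaling and totals without mitochondrial genes left every share and count they apply to within its limits. No paired analysis was possible because each group is 1 library. Depth limits genes under 150 UMIs.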
